A study of Mus musculus with 60 samples.

Results

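Small leucine-rich proteoglycans are secreted matrix proteins, and 8 genes that encode them were followed through single tumor cells sorted from bone. The 8 genes were *Ogn*, *Prelp*, *Dcn*, *Lum*, *Bgn*, *Fmod*, *Aspn* and *Omd*, among the 47729 mouse genes in the count table. They were listed by name, and the list was drawn up with earlier results of these data known. PyMT-Bo1 is a mammary tumor line of C57BL6 mice, and every injected cell carried luciferase (Luc2, with eGFP), H2B-mApple and the surface marker Thy1.1. The line was stained with the membrane dye DiD, which is diluted as cells divide, and was injected into the heart of adult female wild-type C57BL6/J mice. Femurs and tibias of 5 mice were pooled, and single cells were sorted into a DiD+ group of high dye intensity (dormant, 32 cells) and a DiD- group of low dye intensity (proliferative, 28 cells). No mouse is named for a cell, so each group was 1 sample of pooled animals from 1 tumor line, there was no replicate check, and no p-value was computed.

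Small leucine-rich proteoglycans share a core of leucine-rich repeats, and most carry chondroitin, dermatan or keratan sulphate chains. They bind collagen and set the width and spacing of its fibrils, and several also bind growth factors or innate immune receptors. In bone they are best known as products of osteoblasts and other cells of the connective tissue, and they are divided into classes by sequence. Decorin (*Dcn*), biglycan (*Bgn*) and asporin (*Aspn*) belong to class I. Lumican (*Lum*), fibromodulin (*Fmod*), PRELP (*Prelp*) and osteomodulin (*Omd*, also called osteoadherin) belong to class II, and osteoglycin (*Ogn*, also called mimecan) to class III.

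The genes lie in 3 clusters and at 1 separate locus in GRCm38, by the GENCODE annotation. *Aspn* (chr13:49544443-49567565), *Omd* (chr13:49582462-49592822) and *Ogn* (chr13:49608046-49624501) follow each other on the plus strand with no other protein-coding gene lying wholly in the 14896 bases and 15223 bases between them. *Prelp* (chr1:133910304-133921414, minus strand) and *Fmod* (chr1:134037254-134048277, plus strand) are 115839 bases apart, and *Dcn* (chr10:97479609-97518143) and *Lum* (chr10:97565128-97572703) are 46984 bases apart, both on the plus strand. *Bgn* (chrX:73483602-73495933, plus strand) stands alone. The introns of *Cenpp*, a centromere gene on the minus strand, span the chromosome 13 members. Its exons overlap the exons of *Aspn* by 7 bases and those of *Ogn* and *Omd* by 0 bases. An antisense gene, *Gm15851*, shares 350 exon bases with *Prelp* and had 0 counts. The library kit does not mark strand.

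The upstream sequences of *Ogn*, *Prelp* and *Bgn* show the starts of the members found in the most cells. *Ogn* and *Prelp* were held mostly by DiD+ cells, and *Bgn* was held at similar levels in both groups. Each is the 250 bases before the RefSeq start on the gene's own strand (GRCm38.p6, 5′ to 3′), and capitals mark any match to 3 motifs searched on both strands, namely TATAAA from the TATA box, the CAAT-box letters CCAAT, and GGAATG, the core that TEAD factors bind.
Ogn, chr13:49607765-49608014, plus strand: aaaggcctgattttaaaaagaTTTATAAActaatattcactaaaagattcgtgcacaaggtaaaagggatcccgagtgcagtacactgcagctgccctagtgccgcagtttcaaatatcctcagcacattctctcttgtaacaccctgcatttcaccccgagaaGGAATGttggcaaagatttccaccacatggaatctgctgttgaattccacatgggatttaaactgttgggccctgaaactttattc
Prelp, chr1:133921402-133921651, minus strand: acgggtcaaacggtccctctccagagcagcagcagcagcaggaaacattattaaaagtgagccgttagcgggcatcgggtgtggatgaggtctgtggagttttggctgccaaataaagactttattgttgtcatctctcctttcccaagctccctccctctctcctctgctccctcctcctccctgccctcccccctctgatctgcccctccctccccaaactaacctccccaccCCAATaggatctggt
Bgn, chrX:73483351-73483600, plus strand: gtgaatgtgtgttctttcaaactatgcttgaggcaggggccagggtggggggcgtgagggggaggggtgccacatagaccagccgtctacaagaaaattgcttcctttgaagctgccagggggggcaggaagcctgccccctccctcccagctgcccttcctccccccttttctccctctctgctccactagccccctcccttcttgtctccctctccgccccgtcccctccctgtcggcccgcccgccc
In *Ogn*, TATAAA occurred on both strands in overlapping positions 229 to 222 bases before the start, and GGAATG at 86 to 81 bases. *Prelp* held CCAAT at 15 to 11 bases before the start, and *Bgn* held none of the 3 motifs. TATAAA was in 12.4% of the 32851 promoters of this length in the table, CCAAT in 33.8% and GGAATG in 12.6%. The 3 sequences held 4, 5 and 7 CG dinucleotides, beside a median of 6. RefSeq entries matched 6 of the 8 members, without *Dcn* and *Lum*.

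Each cell had 2276789 to 7794219 counts on mouse genes (median 4653711 in DiD+ and 4440161 in DiD- cells). All 60 cells held *Krt8*, a keratin of luminal epithelium, and 59 of 60 cells held a transgene. A cell is said to hold a member where it had at least 10 counts of it, and levels are CPM, the counts scaled to the total on mouse genes, of 1 cell or of the sum over a group. The reads carry no molecular identifiers, so the 95% intervals, and the limit of 3 counts set where none was seen, cover counting error only. Of the 8 members, 6 had at least 1 count in some cell, and *Lum* and *Fmod* had 0 counts in all 60 cells. DiD+ cells held the 6 members in several combinations, whereas DiD- cells held mainly *Bgn*.

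**Figure D1:**
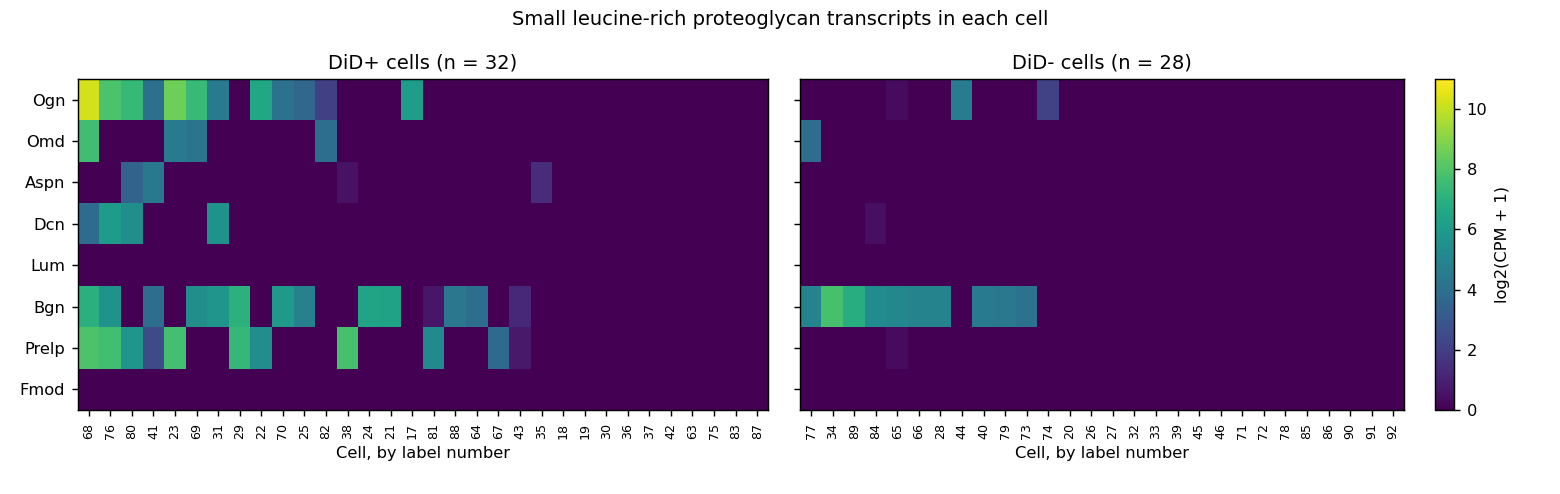
Level of each member (rows) in each cell (columns, named by the number in the cell's label) as log2(CPM + 1), with DiD+ cells on the left and DiD- cells on the right, ordered by the number of members present. Levels of several members lie one above another in the DiD+ cells at the far left. The *Bgn* row holds a level in 14 DiD+ and 10 DiD- cells, and the *Lum* and *Fmod* rows are empty.

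*Ogn*, a keratan sulphate proteoglycan first described from bone, had the most counts of all members in DiD+ cells. It was present in 12 of 32 DiD+ cells (37.5%, exact binomial interval 21.1 to 56.3%), with 25 counts at the lowest, a median of 455 and 4515 at the highest, and had 0 counts in the other 20. Cell 68 alone held 1224 CPM, followed by cell 23 with 381.7 CPM and cell 76 with 232.1 CPM, while the lowest, cell 82, held 3.21 CPM. In DiD- cells *Ogn* was present in 2 of 28 (7.14%, 0.877 to 23.5%), with 61 counts in cell 44 and 11 counts in cell 74, and cell 65 held 1 count. Thus most cells of both groups had none, and the 7 cells above 100 counts were all DiD+. The summed counts were 9236 and 73, or 63.2 CPM (61.9 to 64.5) in DiD+ and 0.611 CPM (0.479 to 0.768) in DiD- cells, a ratio of 103.5 (counting interval 82.2 to 132.2) and a log2 ratio of 5.32 on the log2(CPM + 1) scale. Cell 68 gave 48.9% of the DiD+ counts and cell 44 gave 83.6% of the DiD- counts. Without cell 68 the log2 ratio was 4.41 and the DiD+ level 33.2 CPM, and without cell 44 it was 5.86 and the DiD- level 0.103 CPM. Cell 44 also held 50% or more of the erythroid markers. The difference between the groups in the share of cells with *Ogn*, 30.4 percentage points, was reached by 82 of 10388 genes (0.789%) present in at least 10 cells. *Ogn* met this minimum through its 12 DiD+ cells, so the rank is only a description of these cells.

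*Prelp* encodes a heparin-binding member that anchors basement membranes to connective tissue, and it was found almost wholly in DiD+ cells. It was present in 10 of 32 DiD+ cells (31.2%, 16.1 to 50.0%), with 24 counts at the lowest, a median of 439.5 and 1020 at the highest. Cells 68, 38, 23 and 76 held 242.5, 220.6, 208.2 and 199.7 CPM, so that, unlike *Ogn*, no single cell dominated, and the largest contributor, cell 38, gave 21.9% of the counts. Among DiD- cells, cell 65 held 1 count and the other cells had 0, so no DiD- cell reached the lowest of the 10 DiD+ cells. The summed counts of 4651 and 1 correspond to 31.8 CPM (30.9 to 32.8) and 0.00837 CPM, a log2 ratio of 5.03. The ratio itself, 3805, rests on that 1 count and has a counting interval of 682.5 to 150303. Leaving out each cell moved the log2 ratio only between 4.73 (without cell 38) and 5.10 (without cell 82). A difference in the share of cells as high as that of *Prelp*, 31.2 percentage points, was seen in 72 of the 10388 genes (0.693%). All 10 cells with *Prelp* were DiD+, so it met the minimum of 10 cells through that group alone. The rank is therefore only a description of these cells.

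*Omd* encodes a keratan sulphate proteoglycan of mineralized matrix to which osteoblasts attach, and it was present in few cells. In DiD+ cells it had 733 counts in cell 68, 113 in cell 82, 83 in cell 23 and 75 in cell 69. In DiD- cells all 68 counts were in cell 77. The DiD- cell, at 14.4 CPM, was as high as the lowest DiD+ cell at 14.5 CPM, and cell 68, at 198.8 CPM, stood far above the others. The summed levels were 6.87 CPM (6.45 to 7.31) and 0.569 CPM, a ratio of 12.1 (counting interval 9.44 to 15.7) and a log2 ratio of 2.33. Cell 68 held 73% of the DiD+ counts, and without it the log2 ratio was 0.89 and the DiD+ level 1.90 CPM.

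*Lum* and *Fmod* encode class II proteoglycans that bind fibrillar collagen, the first abundant in cornea and the second in tendon. Both had 0 counts in every DiD+ and DiD- cell. A count of 0 allows up to 0.0205 CPM in the DiD+ sum and 0.0251 CPM in the DiD- sum, and the exact binomial interval of the share of cells with a count reaches 10.9% in DiD+ and 12.3% in DiD- cells (3 cells are 9.38% and 10.7%). This limits cells in which reads were found, not cells that express the gene. *Prelp* and *Dcn*, the neighbors of these genes on chromosomes 1 and 10, had counts in these libraries.

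*Bgn*, a class I chondroitin and dermatan sulphate proteoglycan and a ligand of Tlr2 and Tlr4, was the member held by the most cells and the only one present in a similar share of both groups. It was present in 12 of 32 DiD+ cells (37.5%, 21.1 to 56.3%), from 58 to 518 counts with a median of 165.5, and in 10 of 28 DiD- cells (35.7%, 18.6 to 55.9%), from 50 to 1078 counts with a median of 142. The groups overlapped, and the highest cell of all was DiD- cell 34 at 222.1 CPM. The summed levels were 19.4 CPM (18.7 to 20.1) in DiD+ and 21.5 CPM (20.7 to 22.4) in DiD- cells, a ratio of 0.900 (counting interval 0.853 to 0.95) and a log2 ratio of -0.15. Cell 34 gave 41.9% of the DiD- counts, and without it the log2 ratio was 0.54, so the sign depended on single cells. It was also positive without cell 89, at 0.11.

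*Dcn*, a class I member that binds collagen and TGF-β, was present in 4 of 32 DiD+ cells (12.5%, 3.51 to 29%), with 210 counts in cell 76, 157 in cell 80, 108 in cell 31 and 49 in cell 68. Cell 84 held the 1 count of the DiD- cells, and it also held 50% or more of the macrophage, neutrophil and erythroid markers. The summed levels were 3.59 CPM (3.29 to 3.91) and 0.00837 CPM, a log2 ratio of 2.19, which was 1.67 without cell 76. The ratio of 428.6 rests on 1 count, with a counting interval of 76.6 to 16962.

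*Aspn*, a class I member with a run of aspartate residues that binds collagen and TGF-β, was the rarest of the 6. It was present in 2 DiD+ cells, with 104 counts in cell 41 and 39 in cell 80, and cells 35 and 38 held 8 and 2 counts. All 28 DiD- cells had 0 counts. The DiD+ level was 1.05 CPM (0.888 to 1.23), at least 41.7-fold higher than the limit of 3 counts over the DiD- group allows, and the log2 ratio of 1.03 was 0.43 without cell 41.

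**Figure D2:**
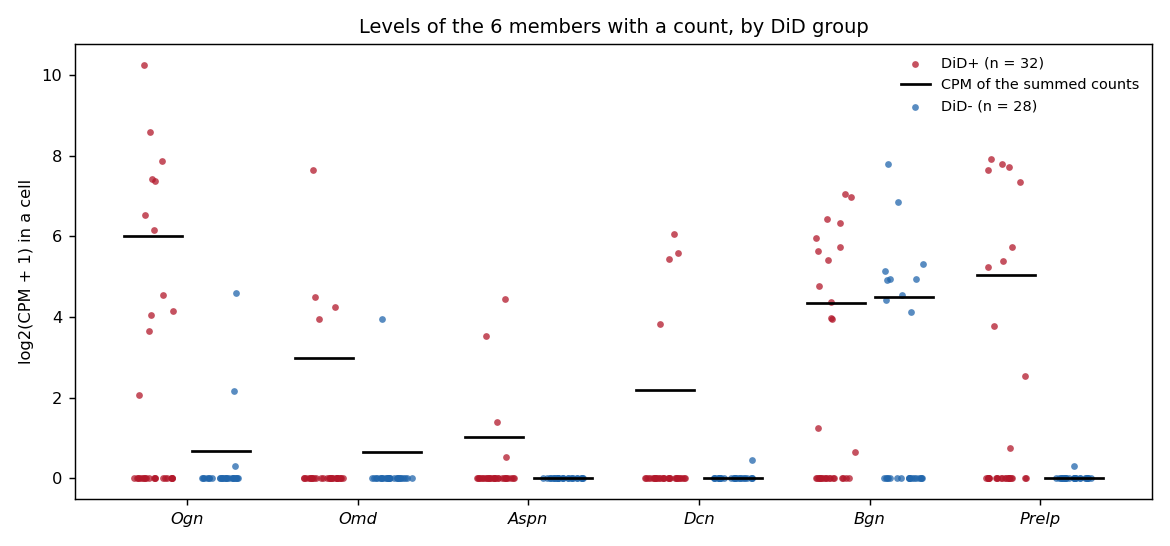
Level in each cell, as log2(CPM + 1), of the 6 members with a count, for DiD+ cells (red, n = 32) and DiD- cells (blue, n = 28), with black lines at the level of the summed counts. *Ogn* and *Prelp* points above 0 are nearly all red, whereas red and blue *Bgn* points overlap, with the highest point blue and the lowest above 0 red.

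Compared per kilobase of exons, the DiD+ levels ran from *Ogn* (24.6 CPM per kilobase) through *Prelp* (8.81), *Bgn* (3.17), *Omd* (3.06) and *Dcn* (0.614) to *Aspn* (0.445). The order of *Bgn* and *Omd* was not firm, since *Bgn* was 7.26 CPM per kilobase on its longest transcript and most *Omd* counts were in cell 68 (0.846 CPM per kilobase without it). That of *Dcn* and *Aspn* was not firm either, since *Dcn* was at 0.376 CPM per kilobase without cell 76. In DiD- cells *Bgn* led, at 3.53 CPM per kilobase, followed by *Omd* (0.253) and *Ogn* (0.238), each of which came mainly from 1 cell and cannot be ordered.

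Of the 8 members, 5 were at least 2-fold higher in DiD+ cells on the log2(CPM + 1) scale, 0 were at least 2-fold lower, *Bgn* passed neither limit and 2 had no count. The 5 reached 1 CPM in DiD+ cells alone, so their number is a description of these cells. Among the 12432 genes that reached this level in either group, 12.1% were at least 2-fold higher and 4.86% at least 2-fold lower. *Ogn* and *Prelp* were at least 8-fold higher, as were 1.27% of all genes. Over all these genes the median log2 ratio was 0.04, and 53.2% were higher in DiD+ cells. The count of 5 became 4 without cell 41 or cell 80, when *Aspn* dropped below 2-fold, and without cell 68, when *Omd* did, and it was 2 with a pseudocount or a minimum of 10 CPM. Summed over all members, DiD+ cells had 18396 counts (125.9 CPM) and DiD- cells 2714 (22.7 CPM), a log2 ratio of 2.42 that ranged from 1.82 without cell 68 to 3.06 without cell 34. In DiD- cells nearly all of this sum was *Bgn*. Without *Bgn* the levels were 106.6 and 1.20 CPM, and without *Ogn* and *Prelp* they were 30.9 and 22.1 CPM.

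**Figure D3:**
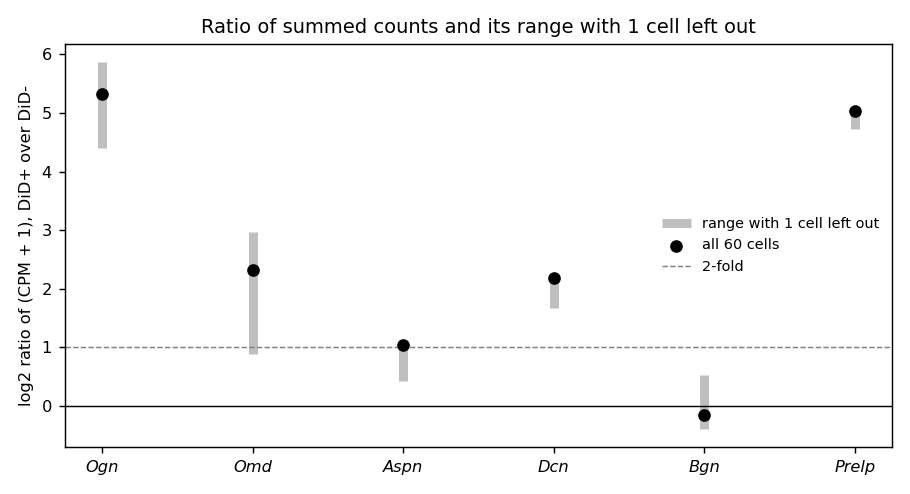
Log2 ratio of DiD+ over DiD- summed levels (CPM + 1) for the 6 members with a count, with grey bars for the range when each of the 60 cells was left out in turn. *Ogn* and *Prelp* stay above 4, *Omd* and *Aspn* reach below the dashed 2-fold line, and *Bgn* lies on both sides of 0.

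The members were then compared cell by cell to see whether the same cells held them. Of the 32 DiD+ cells, 12 held no member, 8 held 1, 5 held 2, 3 held 3, 3 held 4 and 1 held 5. Of the 28 DiD- cells, 16 held no member, 11 held 1 and 1 held 2. At least 3 members were thus present in 7 DiD+ cells (21.9%, 9.28 to 39.97%) and in 0 of 28 DiD- cells, for which the exact binomial interval reaches 12.3% and the limit of 3 cells is 10.7%.

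**Figure D4:**
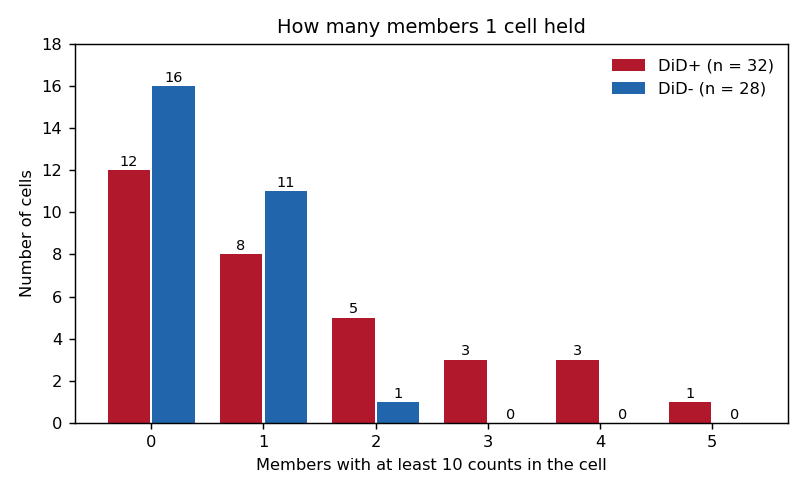
Number of cells (vertical axis) that held 0 to 5 members at 10 counts or more (horizontal axis), for DiD+ cells (red) and DiD- cells (blue). The bars at 3, 4 and 5 members are DiD+ cells.

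The 7 cells that held at least 3 members all held *Ogn*. Cell 68 held *Ogn*, *Prelp*, *Dcn*, *Bgn* and *Omd*, cell 76 held *Ogn*, *Prelp*, *Dcn* and *Bgn*, and cell 80 held *Ogn*, *Prelp*, *Dcn* and *Aspn*. Cell 41 held *Ogn*, *Prelp*, *Bgn* and *Aspn*, cell 23 held *Ogn*, *Prelp* and *Omd*, cell 31 held *Ogn*, *Dcn* and *Bgn*, and cell 69 held *Ogn*, *Bgn* and *Omd*. Their summed member levels differed widely, from 56.1 CPM in cell 41 to 1805 CPM in cell 68.

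Among DiD+ cells, *Ogn* and *Prelp* were both present in 6, which is 50% of the 12 *Ogn* cells and 60% of the 10 *Prelp* cells. The 4 cells with *Dcn*, the 4 with *Omd* and the 2 with *Aspn* were all among the 12 with *Ogn*. *Ogn* was the only member in 1 DiD+ cell, cell 17. *Prelp* was the only member in 3 DiD+ cells (38, 67 and 81), and *Bgn* in 4 (21, 24, 64 and 88). *Bgn* shared 7 cells with *Ogn* and 4 with *Prelp*. The chromosome 13 neighbors *Omd* and *Aspn* were present together in 0 cells.

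Among DiD- cells, 9 held *Bgn* alone and 2 held *Ogn* alone, and the 1 shared cell, cell 77, held *Bgn* and *Omd*. No DiD- cell held *Ogn* with another member at 10 counts. At 1 count, cell 65 held 1 count each of *Ogn* and *Prelp* beside 145 counts of *Bgn*. Over the 60 cells, which include many at 0, Pearson's r of log2(CPM + 1) was 0.56 for *Ogn* with *Prelp*, 0.59 with *Dcn*, 0.56 with *Omd* and 0.19 with *Bgn*, given as descriptions of these cells.

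**Figure D5:**
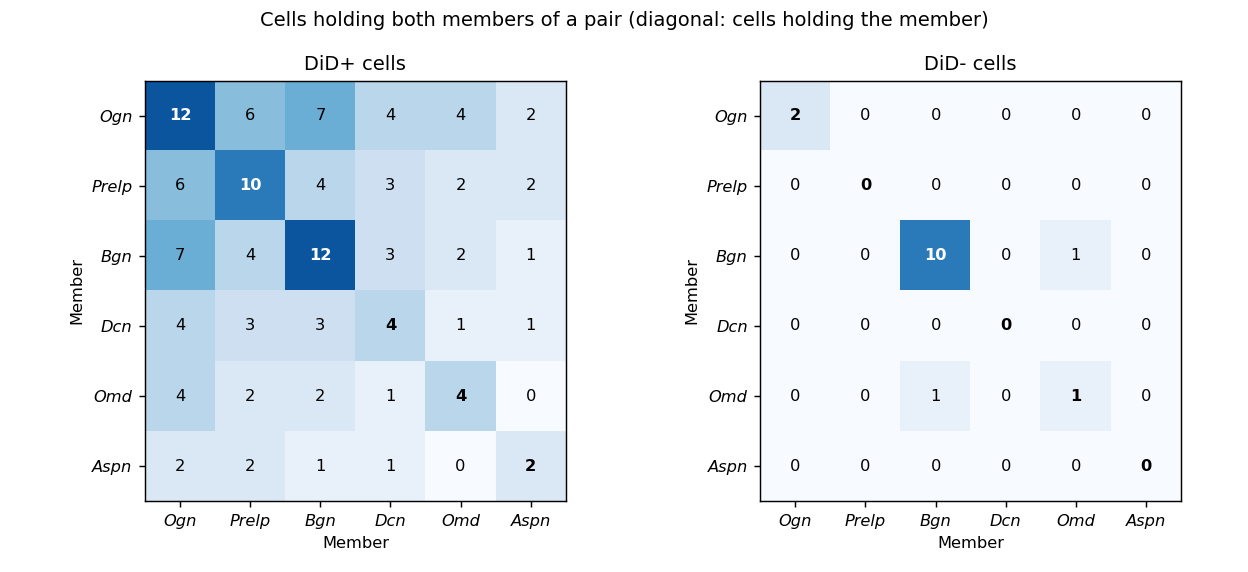
Number of cells that held both members of a pair at 10 counts or more, for DiD+ cells (left) and DiD- cells (right), with the number of cells that held each member on the diagonal. In DiD+ cells the *Ogn* row holds 4 of 4 *Dcn*, 4 of 4 *Omd* and 2 of 2 *Aspn* cells, and in DiD- cells the only pair is *Bgn* with *Omd*.

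The cells with at least 3 members were set beside the 12 DiD+ cells with none. They held 3 or 4 of the 4 transgenes, *Luc2* at 97 to 597 counts and *Krt8* at 572 to 9882 counts (1788 to 16732 in the cells with none). They held 3 to 6 of the 11 bone marrow stromal or fibroblast markers, with summed levels of 98 to 4286 CPM, against 1 to 4 markers and 7.70 to 443.5 CPM in the cells with none. The medians were 395.9 and 77 CPM. Cell 41 (5 markers, 4286 CPM), cell 31 (6 markers, 1745 CPM) and cell 68 (3 markers, 605.9 CPM) lay above every cell with none, and cell 31 had the lowest *Krt8* count. Of the 11 markers, *Lepr*, *Prrx1* and *Ebf3* were at 0 counts in DiD+ cells, while *Lepr* had 134 counts in 1 DiD- cell. *Col3a1* had a log2 ratio of 2.76 (1.32 without cell 41) and was present in 12 DiD+ and 13 DiD- cells. *Pdgfrb* (1.44) was present in all 7 cells with at least 3 members, in 19 of the 32 DiD+ cells and in 12 DiD- cells. *Cxcl12* (-0.25) was present in 25 DiD+ and 24 DiD- cells, and *Kitl* (0.77) in 25 and 25. *Fap* had 463 counts in 2 DiD+ cells, both with at least 3 members, and 0 in DiD- cells. The part of stromal RNA in the member levels was not tested. Cells 31, 41 and 68 held 51, 78 and 4515 of the 9236 *Ogn* counts. Summed G2/M marker levels were 0.201 to 3323 CPM in the cells with at least 3 members, with a median of 47.6 CPM. The cells with none had 0.716 to 16596 CPM, with a median of 409.9 CPM. The 13 DiD+ cells with 1 or 2 members had 14.2 to 15991 CPM, with the highest median, 2164 CPM. The ranges overlapped, and the highest of the 7, cell 80, held 17 of the 20 G2/M markers, while the other 6 were at 368.9 CPM or below. Cell 68 had 6024 genes with a count and 14.3 mouse counts per spike-in count, each the lowest of all 60 cells. The same cell gave the highest *Ogn*, *Prelp* and *Omd* levels.

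Macrophage or monocyte markers (13 of 13 higher in DiD+, median log2 ratio 3.91) and erythroid markers (7 of 7, median 2.20) also differed between the groups, and their summed levels reached 19077 and 174095 CPM in DiD+ and 1663 and 46536 CPM in DiD- cells. In all, 10 cells, 7 DiD+ and 3 DiD-, held 50% or more of the markers of a cell type other than stroma. In 9 of them these were macrophage or erythroid markers, while cell 29, which held *Prelp* and *Bgn*, had megakaryocyte and osteoblast markers. None of the 10 held at least 3 members. Cell 31, which held 50% or more of the stromal markers and 3 members, was not counted among them. Without these 10 cells the log2 ratio was 6.22 for *Ogn*, 5.18 for *Prelp* and -0.77 for *Bgn*. The 10 include cell 44, with 61 of the 73 DiD- *Ogn* counts, and without that cell alone the *Ogn* ratio was 5.86. The osteoblast or osteocyte list had 5 of 5 tested genes higher (median 1.16), with *Spp1* at 5682 and 2345 CPM. *Dmp1* had 4436 counts in 7 DiD+ cells and 0 counts in DiD- cells, so it was tested through DiD+ cells alone. *Phex* had a log2 ratio of 1.16, which was 0.52 without cell 19. *Runx2* had a log2 ratio of 0.03, which was -0.17 without cell 82, and *Alpl* one of 0.39, present in 1 cell of each group. *Sp7* and *Ibsp* were at 0 counts in both groups. The summed osteoblast marker level was made up mostly of *Spp1*, which was present in every cell of both groups. It was highest in cells 31 and 41 (32068 and 31923 CPM), which held 3 and 4 members. Next were cell 29 (27777 CPM) with 2 members and cell 75 (22409 CPM) with 0. The other 5 cells with at least 3 members had 693.5 to 5956 CPM. The part of RNA from these cell types in the member levels was not tested. The 8 stromal genes tested had 6 higher and 2 lower, with a median of 1.1. Proliferation genes were lower, with 19 of 19 S phase genes and 19 of 20 G2/M genes below 0 (medians -0.76 and -0.66).

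The other genes of the family were mostly not held by these cells. Of 10, *Kera*, *Epyc*, *Podn* and *Ecm2*, which include the neighbors of *Lum* and *Aspn*, had 0 counts, and 3 reached 1 CPM in a group. *Tsku*, a secreted regulator of growth factor signals, was at 9.28 and 6.49 CPM (log2 ratio 0.46), present in 16 DiD+ and 13 DiD- cells. *Chadl* was at 3.29 and 2.11 CPM, and its log2 ratio of 0.46 was -0.71 without cell 36. *Podnl1* was the one lower by at least 2-fold, at 2.94 and 9.31 CPM (log2 ratio -1.39), and its log2 ratio was -0.92 without cell 32. *Nyx* had 75 counts, all in DiD+ cell 83.

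Genes that build the sugar chains showed no common direction. Of 20 tested genes of chondroitin and dermatan sulphate synthesis, 10 were higher and 10 lower in DiD+ cells (median 0.02), with 2 at least 2-fold higher and 2 lower. *Chpf*, a chondroitin polymerizing factor, was at 181.1 and 173.6 CPM, and *Csgalnact1*, which starts chondroitin chains, at 29.9 and 63.8 CPM. The keratan sulphate genes were 3 higher and 3 lower (median 0.09). *B3gnt2*, which extends poly-N-acetyllactosamine, the keratan backbone, was at 58.8 and 62.2 CPM in 30 DiD+ and 26 DiD- cells.

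The collagens and microfibril genes that these proteoglycans bind were mostly higher in DiD+ cells, 10 of 11 tested, with 9 at least 2-fold higher and a median of 1.49, beside 53.2% higher and 12.1% at least 2-fold higher over all genes. Of these, *Col14a1*, *Col5a3*, *Col1a1* and *Col5a2* reached 1 CPM in DiD+ cells alone, so the numbers are a description of these cells. Type I collagen was low, with *Col1a1* at 1.81 and 0 CPM, and *Col1a2*, at 0.431 and 0.343 CPM, was not tested. *Col3a1*, a fibrillar collagen, was at 197.4 and 28.3 CPM, and its log2 ratio of 2.76 was 1.32 without cell 41, the cell with the most *Aspn* counts. *Fbn1*, the microfibril protein fibrillin, was at 111.1 and 47.8 CPM (log2 ratio 1.20) and was present in 26 DiD+ and 18 DiD- cells, among them the 7 with at least 3 members. *Col5a1* (0.38) and *Col6a1* (-0.01) were close to the median of all genes. Of its 15 genes, 3 are also stromal markers.

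Of the proteases known to cut these proteoglycans, 5 of 8 were higher and 3 lower (median 0.19), and *Mmp14*, a membrane-bound metalloprotease, was at 358.1 and 322.4 CPM. *Bmp1*, the procollagen C-proteinase that also matures biglycan, was at 267.1 and 364.3 CPM. Among receptors and growth factors that bind the family, 5 were higher and 5 lower (median 0.09). The biglycan receptor gene *Tlr2* was at 15.3 and 32.2 CPM, present in 9 of the 32 DiD+ cells and in 12 DiD- cells. Its log2 ratio of -1.03 was -0.64 without cell 71 and -1.59 without cell 19. *Tlr2* was present in 0 of the 7 cells with at least 3 members, too few cells to set against the 9 of 32. *Tlr4* was at 13.8 and 6.84 CPM, and *Met*, a receptor reported to bind decorin, at 36.1 and 63.2 CPM. Proteoglycan core proteins of other families were 7 higher and 6 lower (median 0.15), with *Sdc2* and *Cd44* present in all 32 DiD+ cells.

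Genes whose levels over the 60 cells were among the most like those of *Ogn* were *Sparc* (Pearson's r 0.58), a collagen-binding matricellular protein, *Sod3* (0.57), the extracellular superoxide dismutase, *Aldh1a7* (0.55), *Dtx3l* (0.54), *Sema3c* (0.54) and *Tlr3* (0.54). The 99th percentile of r over 10365 genes was 0.36. *Sparc* was present in every cell of both groups, whereas *Sod3* was present in 14 DiD+ and 4 DiD- cells, 10 of them with *Ogn*. For the mean of the 8 members, those among the highest were *Pcolce* (0.61), an enhancer of procollagen C-proteinase, *Sparc* (0.60), *Dhrs3* (0.60), *Cst3* (0.59), *Ccn5* (0.57), *Iigp1* (0.57) and *S100b* (0.57). *Ccn5* had a level of 179.0 CPM in the DiD+ sum against 3.31 CPM in DiD-, and it was present in 9 DiD+ cells, 5 of them with at least 3 members. Its Spearman rho was 0.20, against 0.43 to 0.58 for the other genes named for the mean. All points in these values come from the same libraries, and the groups differ in their mean level.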

How the data were processed

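Full-length cDNA of 60 single cells was sequenced, and the labels gave the DiD group of each cell. The authors deposited estimated counts per gene, made by alignment with STAR to GRCm38/mm10 extended by spike-ins and transgenes and by RSEM, with no normalization. Versions are not given in the sources used here, and the labels and the study's methods differ in instrument and read length. The authors also deposited a BASiCS-normalized signal table, which holds 6 of the 8 members and was used as an alternative scaling only.

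Estimated counts were rounded (96.6% of all values and 100% of member values were whole, with no tolerance). Spike-ins and transgenes were left out of totals. Counts were summed per group, scaled to CPM, and compared as log2 ratios with a pseudocount of 1 CPM for genes that reached 1 CPM in either group. Exact Poisson intervals (levels), exact conditional intervals (ratios) and Clopper-Pearson intervals (shares of cells) are 95%. Because a group is 1 sample, no p-value was computed. All 60 cells were kept, and no doublet caller was run. Levels per kilobase use the union of exons in GENCODE vM21.

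The members, gene lists and marker lists were chosen with earlier results of these data known. Genes named by pattern were the 8 with the highest r among genes with at least 10 counts in at least 10 cells, and 2 of the genes so chosen are not reported here. From each list, the 4 genes with the most counts could be named, and others were chosen after their values were seen. Alternatives were other scalings (edgeR TMM, DESeq2 size factors, spike-ins, BASiCS signal, mean of cell CPM), pseudocounts, count minimums, thinning to 2200000 counts per cell, and leaving out cells. Python 3.11.15, numpy 2.4.6, pandas 2.3.3, scipy 1.17.1, matplotlib 3.10.9, R 4.3.3, edgeR 4.0.16 and DESeq2 1.42.0 were used, and the steps were tested on simulated counts. The authors' own BASiCS test was not rerun.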

Additional observations from a re-analysis of the deposited data

How the results depend on the processing

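With 1 sample a group, the spread between mice is unknown, the intervals cover counting error only, and members with under 10 counts in a cell cannot be ordered. The log2 ratio of the summed members was 2.42 and was 2.74 with the mean of cell CPM, 2.60 with BASiCS values, 1.97 with spike-in scaling, 2.40 with TMM factors, 2.39 with DESeq2 size factors, 2.05 with a pseudocount of 10 CPM, 2.59 without the cells with other cell types' markers and 2.59 without these and the stromal cell (a choice made after seeing the data), and 1.82 to 3.06 with 1 cell left out. The 5 members at least 2-fold higher became 2 with a pseudocount of 10 CPM, 2 with a minimum of 10 CPM, 4 with spike-in scaling and 4 to 5 with 1 cell left out. The 7 DiD+ cells with at least 3 members became 3 at 100 counts, and 12 and 4 held at least 2 and at least 4 members, with 6 to 7 when 1 cell was left out. The 0 DiD- cells became 1 at 1 count, and 1 held at least 2 members. Thinning gave *Ogn* in 11 DiD+ and 1 DiD- cells. *Bgn* was 0.14 with the mean of cell CPM and 0.07 with BASiCS values. The log2 ratios of *Ogn*, *Prelp*, *Dcn*, *Omd* and *Aspn* stayed above 0 under the 10 alternatives and 60 left-out cells tried. With DiD- sums of 1, 1 and 0 counts, the sign for *Prelp*, *Dcn* and *Aspn* could hardly have changed under these settings. With no minimum, 7.99% of all genes were at least 2-fold higher, and with 10 CPM 6.38%. No paired analysis was possible because the cells' numbers pair no DiD+ with a DiD- cell and no test was run.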

Other observations

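Neutrophil genes were 0 of 3 tested higher in DiD+ (median log2 ratio -0.98), B or plasma cell genes 1 of 1 (3.15), T or NK cell genes 1 of 1 (1.70), megakaryocyte genes 3 of 3 (1.07), endothelial genes 0 of 1 (-1.30), chondrocyte genes 0 of 1 (-0.10) and osteoclast genes 2 of 3 (1.65). The epithelial genes were 0 of 3 higher (-0.89), with *Krt8* at 1831 and 3395 CPM. Within DiD+ cells, Pearson's r of *Ogn* was -0.39 with the summed G2/M level, 0.45 with the summed stromal marker level, -0.11 with the macrophage marker level and -0.27 with the count total of the cell (32 cells that share a sort and library preparation, given as descriptions).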
